A study of Mus musculus with 20 samples.

Results

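The stefin A cluster genes are closely related small genes that lie within one stretch of mouse chromosome 16, where Gm6815, Gm5416 and 2010005H15Rik, which are not on the list, lie between them. They were chosen by symbol, with an earlier result on these data known, and the list was Stfa1, Stfa2, Stfa2l1, Stfa3, BC100530, BC117090 and Gm5483. All 7 symbols had a row among the 24421 genes of the count files, and all 7 passed the low-count filter that left 14030 genes for testing. Because the list was taken up for its response to imiquimod, its differences between groups are given as a description, with no p-value.

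RNA was measured in 20 libraries of bone marrow neutrophils, 5 mice in each of 4 groups, to ask how loss of the clock gene Bmal1 in myeloid cells changes neutrophils at rest and in an induced model of lupus. The WT groups were C57BL/6J mice bought from a supplier, so they were not littermates of the other genotype. The KO groups (Bmal1 myeloid conditional KO, Bmal1Mye-/-) were homozygous for a floxed Bmal1 allele and carried Cre at the Lyz2 locus, which is active in neutrophils, monocytes and macrophages alike. The IMQ groups of either genotype had received 5% imiquimod cream on the ears 3 times per week for 6 weeks, starting at 8 to 10 weeks of age, and the untreated groups had received none. Imiquimod is a Toll-like receptor agonist. All mice were female, and neutrophils were isolated from femurs and tibias by magnetic negative selection. Throughout, a level is in CPM, the reads on a gene relative to the reads on all genes of the library after TMM scaling, and a difference is a log2 fold change ± SE from edgeR.

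Stefins, also called family 1 cystatins, are small inhibitors of cysteine cathepsins. They lack a secretion signal and act mainly in the cytosol, where they block proteases that leak from lysosomes or granules. Man has a single stefin A gene, CSTA, which is best known from the skin barrier, whereas the mouse carries a tandem array of copies that are expressed in the myeloid lineage. The related Cstb and Cst3 encode stefin B and the secreted cystatin C.

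Between them the 7 genes covered 299 kb (chr16:36156811-36455392, build mm10). In order along the chromosome they were Stfa2l1 (36156811 to 36161953, plus strand), Gm5483 (36184212 to 36188111, plus), Stfa1 (36276951 to 36285373, plus), BC117090 (36321665 to 36334332, minus), BC100530 (36359382 to 36367748, minus), Stfa2 (36403992 to 36408457, minus) and Stfa3 (36450537 to 36455392, minus). Each had 3 exons and a coding sequence of 288 to 309 bases. RefSeq names Gm5483, BC100530 and BC117090 as Cstdc4, Cstdc5 and Cstdc6. Their coding sequences were between 77.66% (Stfa2l1 and Stfa1) and 97.94% (Stfa1 and BC100530) identical over the 21 pairs. Stfa2 and Stfa2l1 were 96.44% identical, with 11 of 309 bases different, yet they gave the largest and nearly the smallest response of the family. The first 100 coding bases of that pair are shown because the counts of these near-copies moved by different amounts; capitals mark the 7 bases of Stfa2 that differ from Stfa2l1.
Stfa2l1: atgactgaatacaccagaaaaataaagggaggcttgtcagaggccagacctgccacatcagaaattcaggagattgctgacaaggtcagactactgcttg
Stfa2: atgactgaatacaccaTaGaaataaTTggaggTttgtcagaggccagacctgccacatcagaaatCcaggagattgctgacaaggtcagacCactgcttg

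A second stretch, coding bases 121 to 180 of Stfa2l1 and the aligned bases of the others, shows how the family divides. It is printed to let the reader see which copies share sequence, with capitals at each base that differs from Stfa2l1. Stfa2 had none, Gm5483 and Stfa1 had 12, and Stfa3, BC100530 and BC117090 had 13.
Stfa2l1: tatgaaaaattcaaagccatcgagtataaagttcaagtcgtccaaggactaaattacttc
Stfa2: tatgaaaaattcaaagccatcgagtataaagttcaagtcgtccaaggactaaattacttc
Stfa3: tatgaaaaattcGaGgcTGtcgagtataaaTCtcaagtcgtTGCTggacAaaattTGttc
Gm5483: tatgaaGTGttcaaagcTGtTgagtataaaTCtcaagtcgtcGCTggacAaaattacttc
Stfa1: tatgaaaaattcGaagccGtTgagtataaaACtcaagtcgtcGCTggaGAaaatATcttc
BC100530: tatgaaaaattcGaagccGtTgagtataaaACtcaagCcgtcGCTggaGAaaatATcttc
BC117090: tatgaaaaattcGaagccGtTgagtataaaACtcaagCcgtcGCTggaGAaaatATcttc

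BC100530 and BC117090 were the same over this stretch, and Stfa2 and Stfa2l1 were also the same there. Reads were 50 bases long, and reads that aligned to more than 1 place were not counted on any gene. Of the 50-base windows of each transcript, all 363 of Stfa3 were found in no other gene's transcript, as were 84.1% of those of Stfa2, 75.4% of Stfa2l1, 73.1% of Stfa1, 66.3% of BC117090, 64.4% of Gm5483 and 51.1% of BC100530. BC100530 shared most windows with Stfa1 (131), Stfa2 with Stfa2l1 (62), and Gm5483 with the neighbouring family gene 2010005H15Rik (130). Where each read was placed by itself, reads from shared windows are therefore missing from the counts of all members but Stfa3, and a read with a sequencing error may fall on the wrong copy.

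Promoters from RefSeq (GRCm38.p6, the build of mm10) were at hand for 6 of the 7 members. They were 70.27% (Stfa2 and Gm5483) to 96.42% (Stfa1 and BC100530) identical over the 15 pairs. The 6 shared runs of at most 13 identical bases, and both of the longest are given here as letters read on the gene's strand and then searched on both strands of all mouse promoters. ACCTTTAAAACCC was in 9 of 32851 promoters (0.0274%), while the TTTAAA inside it was in 13.2%. GATCATTTCTTCT was in 10 (0.0304%) and lay between 4 bases before and 21 bases after the RefSeq start. TTTAAA lay 9 to 33 bases before that start, and the 30 bases around it are shown with TTTAAA in capitals. The 13-base run that holds it is common to copies that responded strongly and weakly, and the bases around that run differ. The windows were chr16:36156766-36156795 (Stfa2l1, plus strand), chr16:36184171-36184200 (Gm5483, plus), chr16:36277106-36277135 (Stfa1, plus), chr16:36367562-36367591 (BC100530, minus), chr16:36408375-36408404 (Stfa2, minus) and chr16:36455406-36455435 (Stfa3, minus).
Stfa2l1: tttacagaaaccTTTAAAaccctgagtctc
Gm5483: tttacagataccTTTAAAaccctgactctt
Stfa1: ctttcggataccTTTAAAaccctgagtctc
BC100530: tttacagataccTTTAAAaccccgagtctc
Stfa2: cttacagaaaccTTTAAAaccctgagtctc
Stfa3: ttacagataaccTTTAAAaccccgagtctc

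Both runs were also in the promoter of Gm5416, a family gene outside the list. A STAT-type motif, TTCNNNGAA, was found in the promoter of Gm5483 only, against 8.3% of all promoters. The letters GAGGAAGT (an ETS and PU.1 type motif, 3.2% of promoters) and TTGCGCAA (a C/EBP type motif, 0.183%) were in none of the 6. These are matches of letters, and no binding was measured.

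Libraries held 30782166 to 92613500 reads on genes (median 66094896). The 11 neutrophil genes used as a check of cell type, S100a8 and S100a9 among them, summed to 145365 to 160205 CPM in the WT untreated libraries. Of the 20 libraries, several of the IMQ groups stood apart in ways that bear on the family. WT IMQ replicate 3 and KO IMQ replicate 1 had the lowest neutrophil sums (109863 and 76858 CPM) and the largest shares of reads aligned to several places (6.34% and 6.50%, against at most 4.83% in the untreated libraries). KO IMQ replicate 5 came next on both measures, at 118910 CPM and 5.75%. The lowest neutrophil sum of an untreated library was 134837 CPM. WT IMQ replicate 5 and KO IMQ replicate 2 lay among the untreated libraries on the first principal component of all genes. In the KO groups, Lyz2, whose coding sequence the Cre insertion disrupts, was at 58.8 to 177 CPM against 2465 to 12033 CPM in WT (log2 -6.40, adjusted p = 1.469e-09 by edgeR in untreated mice). The targeted gene, listed as Arntl, was at 1.35 ± 0.322 CPM (SD, n = 5) in WT untreated and 0.721 ± 0.240 CPM in KO untreated libraries, a difference that did not pass the test over whole-gene counts (log2 -0.90, edgeR adjusted p = 1).

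In untreated marrow the family was dominated by Stfa2l1 and Gm5483. Per kilobase of transcript windows found in no other gene, the median level in WT untreated libraries was 425 CPM for Stfa2l1 and 347 for Gm5483. It was 42.2 for Stfa1, 34.7 for Stfa3, 22.9 for BC100530, 14.3 for Stfa2 and 0.744 for BC117090. This scale takes each read as placed by itself, and whether the counts used the first read only or both is not given. The order of the members therefore holds under that reading. The ranges over the 5 WT untreated libraries overlapped between Stfa2l1 (351 to 459) and Gm5483 (274 to 387), between Stfa1 (34.5 to 49.6) and Stfa3 (30.0 to 39.3), and between BC100530 (17.3 to 25.7) and Stfa2 (13.3 to 19.5). Other neighbours in this order did not overlap. Stfa2l1 alone took a median of 48.7% of all counts of the family in WT untreated libraries. BC117090 was close to silent there, with 6 to 21 reads per library.

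Stfa2 showed the widest response to imiquimod. Its level in WT untreated libraries, replicates 1 to 5, was 4.98, 5.07, 4.73, 6.92 and 6.09 CPM. In the WT IMQ libraries it was 146, 127, 418, 78.5 and 9.31 CPM. Every treated WT library was above every untreated one, and replicate 5 was only just above them. The difference was 4.81 ± 0.69 (28.0-fold), the 8th highest of the 14030 genes tested. In KO untreated libraries Stfa2 was at 6.27, 6.11, 6.26, 6.98 and 7.56 CPM, and in KO IMQ libraries at 22.6, 36.9, 111, 159 and 79.5 CPM. The KO groups did not overlap either, and their difference was 3.62 ± 0.66 (12.3-fold).

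Its near copy Stfa2l1, already abundant at rest, differed less. In WT untreated libraries it was at 105, 124, 98.0, 128 and 118 CPM. In WT IMQ libraries it was at 388, 410, 345, 308 and 167 CPM, with no overlap and a difference of 1.49 ± 0.37 (2.82-fold). In KO untreated libraries it was at 122, 105, 133, 130 and 113 CPM. KO IMQ libraries were spread from far below to far above these, at 52.5, 204, 265, 536 and 185 CPM, and the fitted difference was 1.04 ± 0.37 (2.06-fold). KO IMQ replicate 1 was below all 10 untreated libraries of either genotype, and the other 4 were above all of them.

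Gm5483 followed Stfa2l1. It was at 78.0, 86.3, 64.5, 91.0 and 81.5 CPM in WT untreated and at 258, 280, 227, 226 and 116 CPM in WT IMQ libraries. The WT groups did not overlap, and the difference was 1.46 ± 0.36 (2.76-fold). In KO untreated libraries it was at 84.6, 78.2, 91.9, 96.7 and 75.8 CPM, and in KO IMQ libraries at 32.2, 135, 160, 299.6 and 101 CPM. Replicate 1 was again below all 10 untreated libraries. At 0.77 ± 0.35 (1.70-fold), Gm5483 was the member with the smallest difference in KO and the one that was not called.

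Stfa1, the member after which the family is numbered, lay between these extremes. It was at 18.9, 14.6, 14.3, 20.6 and 17.5 CPM in WT untreated libraries. It was at 134.5, 109.3, 301.5, 64.7 and 24.3 CPM in WT IMQ libraries, with no overlap and a difference of 2.88 ± 0.49 (7.39-fold). In KO it was at 21.6, 16.1, 15.7, 24.3 and 19.7 CPM untreated and at 22.4, 43.9, 92.8, 112.3 and 61.9 CPM with imiquimod (1.77 ± 0.47, 3.42-fold). KO IMQ replicate 1 lay within the untreated range, and the other 4 treated KO libraries lay above it.

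BC100530, the closest relative of Stfa1 in sequence, was lower at rest and differed more. WT untreated libraries were at 6.74, 5.58, 5.04, 7.48 and 6.67 CPM, and WT IMQ libraries at 59.2, 56.4, 266, 35.1 and 10.5 CPM. The difference was 3.76 ± 0.63 (13.6-fold), with no overlap. KO untreated libraries were at 7.37, 5.39, 6.53, 6.98 and 6.46 CPM, and KO IMQ libraries at 13.7, 23.5, 52.8, 86.3 and 32.8 CPM, again with no overlap (2.68 ± 0.61, 6.39-fold). Of the 570 windows of BC100530, 291 (51.1%) were found in no other gene's transcript. The others were shared with 4 genes, 131 of them with Stfa1, so these levels rest on the unique part where each read was placed by itself.

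Stfa3, the member whose reads are least open to mixing with another copy, was at 10.9, 12.6, 10.9, 14.3 and 12.8 CPM in WT untreated libraries. In WT IMQ libraries it was at 58.2, 56.1, 230.4, 47.6 and 18.6 CPM, without overlap (2.74 ± 0.52, 6.69-fold). It was at 14.9, 12.2, 10.1, 12.7 and 12.4 CPM in KO untreated and at 14.7, 23.5, 74.9, 65.0 and 34.3 CPM in KO IMQ libraries (1.77 ± 0.50, 3.40-fold). The lowest treated KO library was just under the highest untreated one. Since every window of Stfa3 is found in no other gene, the difference was also present in a gene with no shared window.

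BC117090 stayed the least abundant member in all 4 groups. It was at 0.222, 0.0850, 0.159, 0.319 and 0.167 CPM in WT untreated and at 2.91, 2.02, 5.21, 1.51 and 0.334 CPM in WT IMQ libraries, of which replicate 5 rested on 18 reads. The difference was 3.65 ± 0.62 (12.5-fold). KO untreated libraries were at 0.153, 0.173, 0.202, 0.112 and 0.0875 CPM and KO IMQ libraries at 0.259, 0.506, 1.65, 1.74 and 1.07 CPM (2.85 ± 0.62, 7.22-fold). Neither genotype's groups overlapped, although the lowest treated library of each was close to the highest untreated one.

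**Figure D1:**
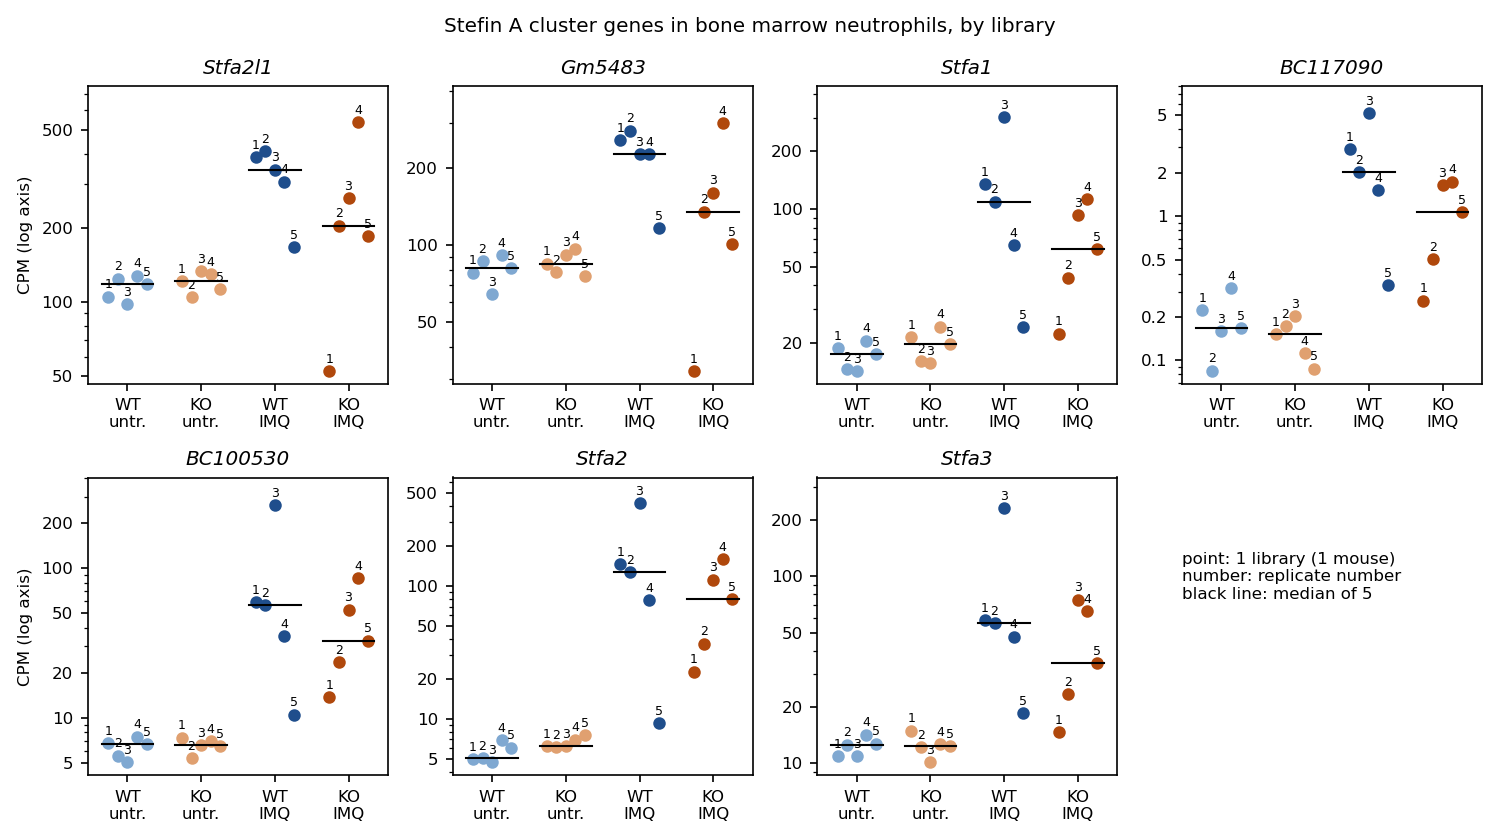
Level of each of the 7 genes in each library (CPM, log axis), with 1 point per mouse, the replicate number beside it and a black line at the median of 5. The untreated libraries of either genotype lie close together, whereas the WT IMQ libraries spread from replicate 5 upward and the KO IMQ libraries from replicate 1 upward.

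In WT mice all 7 members were called higher with imiquimod (adjusted p under 0.05 over all genes), where 2.34% of the tested genes were called higher, and in all 7 the groups did not overlap, against 3.11% of genes in that direction. The median of the members was 2.88 and that of all tested genes was 0.03. In KO mice 6 of 7 were called higher, where 14.4% of genes were, and 3 of 7 (Stfa2, BC100530 and BC117090) did not overlap, against 10.8%. The median there was 1.77, and that of all genes was 0.02. As the list was drawn up for this response, nothing is read from these counts.

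The calls of Stfa2l1 and Gm5483 were the weakest. In WT both were lost when any library was left out other than WT IMQ replicate 5, at differences of 1.39 to 1.53 for Stfa2l1 and 1.37 to 1.51 for Gm5483. Without WT IMQ replicate 5 both calls were kept, at 1.65 and 1.62, and both were lost when mice were matched by replicate number (5 of 7 called). In KO the call of Stfa2l1 was lost when any untreated library or IMQ replicate 3, 4 or 5 was left out, and it was also lost with the replicate block (5 of 7 called). Without KO IMQ replicate 4 the differences in KO were 0.58 for Stfa2l1 and 0.35 for Gm5483. Without KO IMQ replicate 1 they were 1.32 and 1.04, and all 7 members were called. The other 5 members kept their calls in both genotypes whichever single library was left out, and all counts of called members were the same without WT IMQ replicate 5 and KO IMQ replicate 2.

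**Figure D2:**
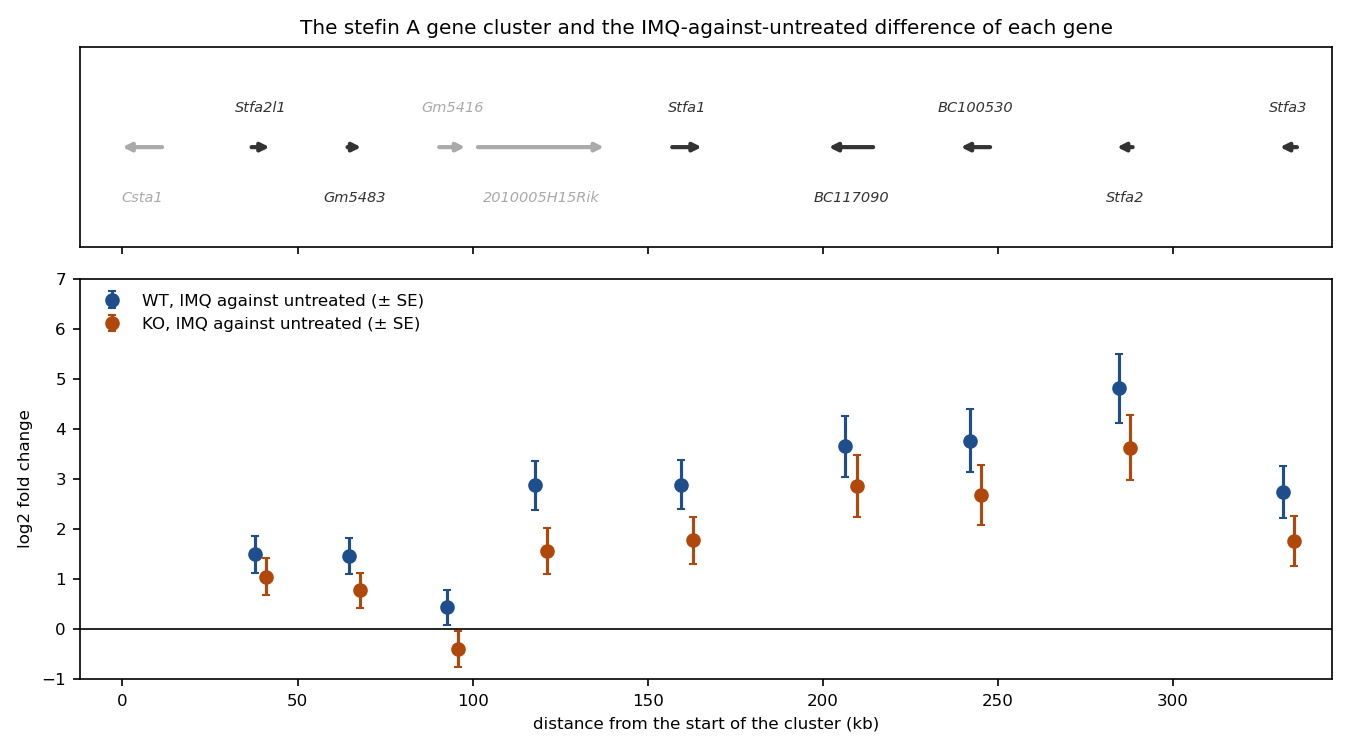
The cluster drawn to scale from its start on chromosome 16 (kb), with members in black, other family genes in grey and arrows in the direction of transcription, above the log2 fold change of IMQ against untreated (± SE) in WT (blue) and KO (orange) mice. The 3 members at 2.68 or more in KO and 3.65 or more in WT (BC117090, BC100530 and Stfa2) lie next to each other on the minus strand, and Stfa2l1 and Gm5483, with 1.49 and 1.46 in WT, lie together on the plus strand.

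Stfa2 and Stfa2l1 are 96.44% identical in their coding sequence and 92.91% in their promoter, but are on opposite strands, with every other member except Stfa3 between them. Within a library their ratio is free of depth and scaling. Per 100 counts of Stfa2l1 there were 4.08 to 5.40 counts of Stfa2 in WT untreated and 4.70 to 6.70 in KO untreated libraries. There were 37.5, 31.0, 121, 25.5 and 5.56 in WT IMQ libraries, and 43.1, 18.0, 42.0, 29.6 and 43.0 in KO IMQ libraries. Treated and untreated libraries did not overlap in either genotype, and Stfa2 exceeded Stfa2l1 in 1 library, WT IMQ replicate 3. KO IMQ replicate 1, in which Stfa2l1 was lowest, had a ratio as high as the other treated KO libraries.

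The ratio of Gm5483 to Stfa2l1 was far steadier. It was 65.8 to 74.1 per 100 counts in WT untreated, 67.2 to 74.7 in KO untreated, 65.8 to 73.5 in WT IMQ and 54.5 to 66.2 in KO IMQ libraries. The KO IMQ libraries were the lowest of the 4 groups, and did not overlap the KO untreated ones.

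**Figure D3:**
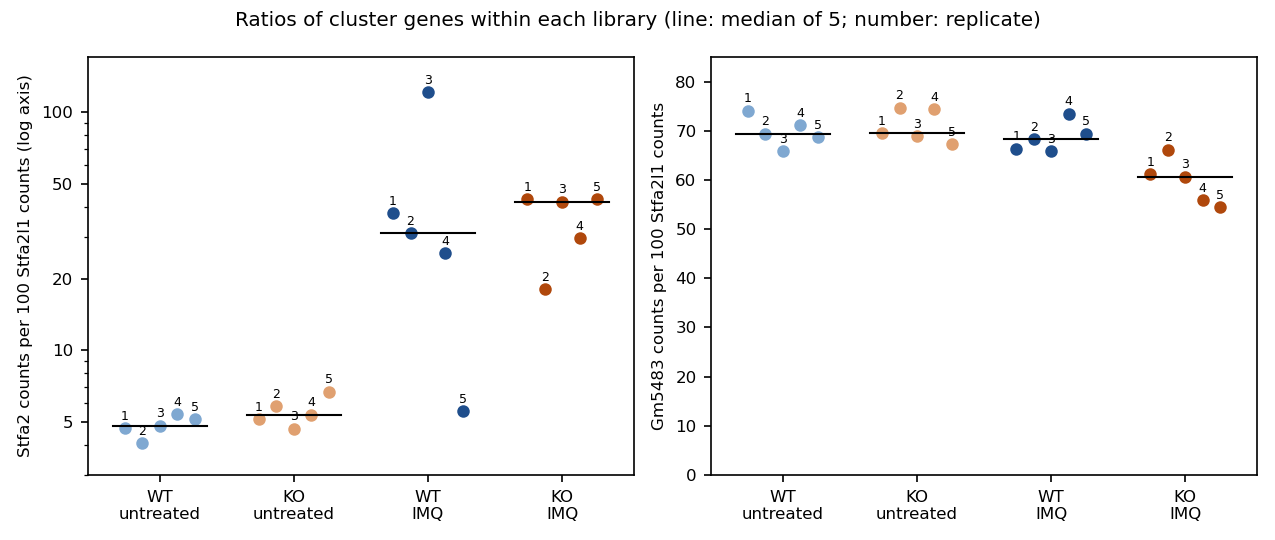
Counts of Stfa2 (left, log axis) and of Gm5483 (right, linear axis from 0) per 100 counts of Stfa2l1 in each library, with the replicate number beside each point and a line at the median of 5. The left ratio is 4.08 to 6.70 in untreated libraries and 18.0 to 121 in the treated ones other than WT IMQ replicate 5 (5.56), while the right ratio stays between 54.5 and 74.7 throughout.

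Summed over the 7 members, the family was at 198 to 269 CPM in WT untreated and at 223 to 278 CPM in KO untreated libraries. It was at 1046, 1040, 1793, 762 and 347 CPM in WT IMQ libraries and at 158, 468, 758, 1259 and 495 CPM in KO IMQ libraries. The sum in KO IMQ replicate 1 was below every untreated library. The log2 difference of the sum was 2.08 ± 0.41 in WT and 1.32 ± 0.40 in KO. In WT the makeup of the sum moved with it. The share of Stfa2l1 was 19.2 to 48.3% in WT IMQ libraries. That of Stfa2 was 2.69 to 23.3%, against 2.04 to 2.58% in WT untreated libraries. In KO the makeup did not follow the sum. KO IMQ replicate 1, with the lowest sum, had 14.3% Stfa2 and 33.2% Stfa2l1. KO IMQ replicate 4, with the highest sum of its group, had 12.6% and 42.5%.

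**Figure D4:**
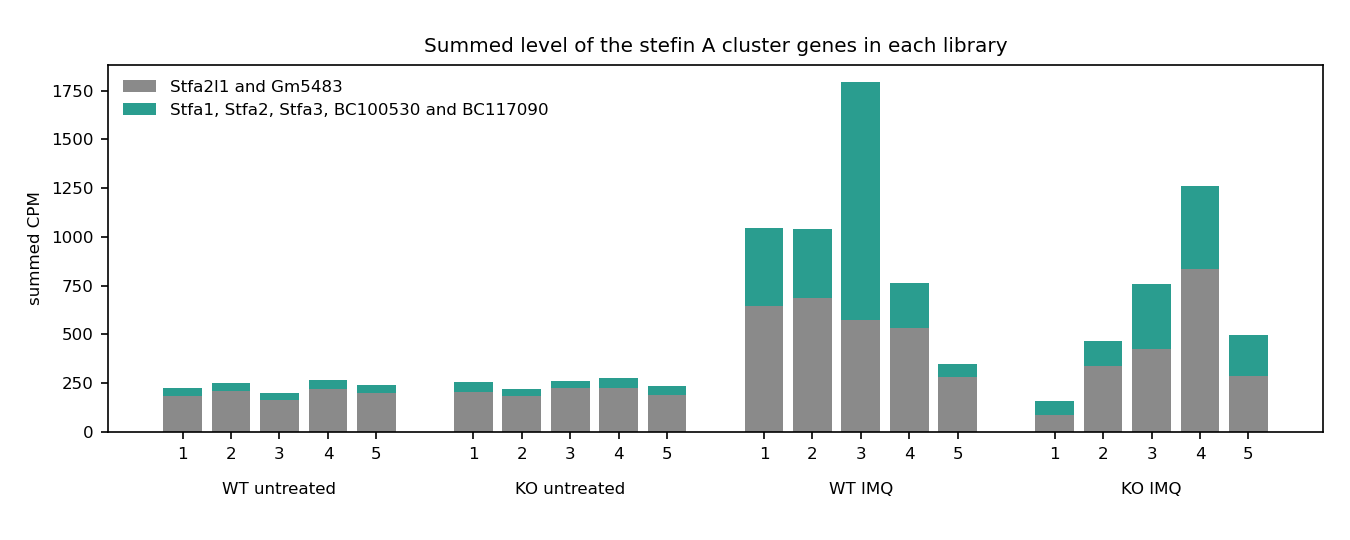
Summed CPM of the family in each of the 20 libraries, stacked from Stfa2l1 and Gm5483 (grey) and from the other 5 members (green). The untreated bars reach 198 to 278 CPM, mostly grey, and in WT IMQ replicate 3 the green part, 1221 of 1793 CPM, is the larger.

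The members moved together between mice. Over the 20 libraries the Pearson correlation of a member's log2 CPM with the mean of the other members was 0.86 (Gm5483) to 0.98 (Stfa1), and on deviations from the group means it was 0.78 to 0.96. These points share their group, library and scaling, and partly their reads, so the values are a description. In the treated groups the same mice were at the ends for nearly every member. WT IMQ replicate 5 was the lowest of its group for all 7 and KO IMQ replicate 1 was the lowest of its group for all 7. WT IMQ replicate 3 was the highest for 5 members, and replicate 2 for Stfa2l1 and Gm5483. KO IMQ replicate 4 was the highest for 6 members, and replicate 3 for Stfa3. The highest treated library exceeded the lowest 2.41-fold (Gm5483) to 44.9-fold (Stfa2) in WT and 5.01-fold (Stfa1) to 10.2-fold (Stfa2l1) in KO, compared with 1.36-fold to 3.75-fold over the 10 untreated libraries.

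Between genotypes at rest the family differed little. KO against WT, untreated, the differences ran from -0.40 ± 0.63 (BC117090) to 0.26 ± 0.60 (Stfa2), with a median of 0.07. No member was called by edgeR (0.207% of all genes were) and none reached an unadjusted p under 0.05. None had groups without overlap, against 1.52% of genes.

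With imiquimod, all 7 members were lower in KO than in WT by the fitted value, from -0.38 ± 0.36 (Stfa2l1) to -1.20 ± 0.55 (BC117090), with a median of -0.93 against 0.03 for all genes. No member was called by edgeR (0.292% of all genes were), 1 (BC117090) had an unadjusted p under 0.05, and none had groups without overlap (1.07% of genes). These values moved with single mice of both genotypes. Without WT IMQ replicate 3 they were -0.30 for Stfa1, -0.12 for Stfa2, -0.07 for Stfa3, 0.07 for BC100530 and -0.68 for BC117090, while Stfa2l1 and Gm5483 were at -0.34 and -0.58. Those 2 genes came closest to 0 without KO IMQ replicate 1, at -0.10 and -0.33. The differences grew without KO IMQ replicate 4, to between -0.86 (Stfa2l1) and -1.46 (BC100530), and without WT IMQ replicate 5, to between -0.53 (Stfa2l1) and -1.46 (BC117090). The response in WT was also smaller without WT IMQ replicate 3, where Stfa2 was at 4.01, BC117090 at 3.13, BC100530 at 2.67, Stfa1 at 2.26 and Stfa3 at 1.87. The difference of the sum between KO and WT, -0.67 ± 0.39, ran from -1.07 to -0.33 as single libraries were left out.

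The interaction, the difference between the responses of KO and WT, ran from -0.45 ± 0.51 (Stfa2l1) to -1.18 ± 0.84 (Stfa2). Without WT IMQ replicate 3 it was 0.03 for BC100530, -0.09 for Stfa3, -0.27 for BC117090, -0.37 for Stfa2 and -0.48 for Stfa1, and without KO IMQ replicate 1 it was -0.17 for Stfa2l1 and -0.41 for Gm5483. Without KO IMQ replicate 4 it was larger, from -0.91 (Stfa2l1) to -1.53 (Stfa2). edgeR called none of the members and none of the tested genes (0%); 721 of all genes and none of the members had an unadjusted p under 0.05. DESeq2 also called no member. A difference in response between the genotypes was not detectable over the spread between treated mice.

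**Figure D5:**
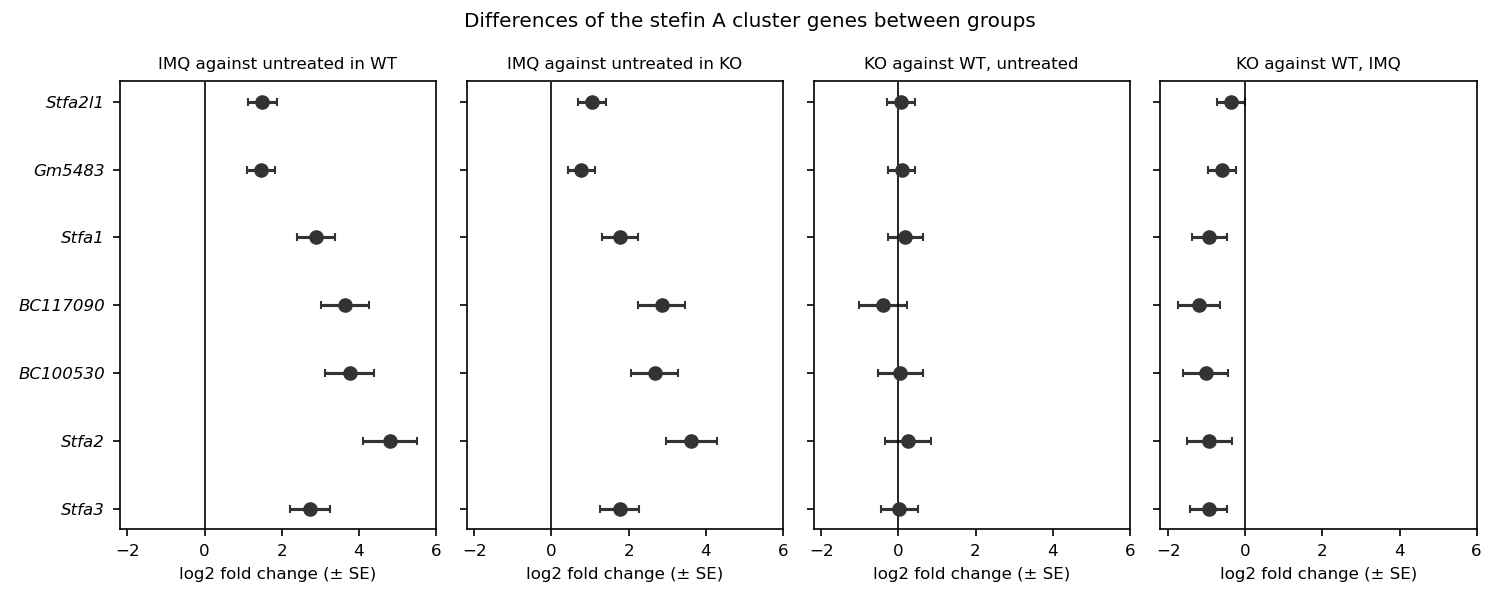
Log2 fold change (± SE) of each member, from the model over all 20 libraries, in the comparisons of IMQ with untreated in each genotype and of KO with WT in each treatment. Values of IMQ against untreated run from 1.46 to 4.81 in WT and from 0.77 to 3.62 in KO, and values of KO against WT lie around 0 when untreated and at -0.38 to -1.20 with IMQ, with standard errors of 0.35 to 0.59 in the latter.

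Levels of other cell classes also varied between the treated libraries. The 12 late neutrophil genes, of which 5, Mmp8, Mmp9 and Cxcr2 among them, are also in the list of 11, summed to 26883 to 34721 CPM in WT untreated and to 27268 to 33927 CPM in KO untreated libraries. In WT IMQ libraries, replicates 1 to 5, they summed to 28669, 25385, 9205, 34135 and 33718 CPM, and in KO IMQ libraries to 5986, 23862, 16949, 25072 and 12321 CPM. WT IMQ replicate 3, highest for most members, and KO IMQ replicate 1, lowest for all of them, both had the least of their group, while KO IMQ replicate 4, highest for most members, had the most of its group and WT IMQ replicate 5, lowest for all, was within the untreated range. In KO 4 of the 12 fell with imiquimod by edgeR, where 9.04% of all genes were called lower. None of the 12 was called without KO IMQ replicate 1, KO IMQ replicate 5 or KO untreated replicate 4, and 8 were without KO IMQ replicate 4. Calls over all genes in KO also moved between fits, from 1612 to 4372. In WT none of the 12 was called (1 with an unadjusted p under 0.05), where 1.6% of all genes were called lower. Between KO and WT with imiquimod none of the 12 was called, and all 12 were lower in KO by the fitted value (median -0.65). Of the 12, 2 had an unadjusted p under 0.05, as had 2788 of the 14030 genes. Without WT IMQ replicate 3, 3 of the 12 were called, where 3129 of all genes were.

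The 10 proliferation genes summed to 467 to 733 CPM in WT untreated and to 383 to 676 CPM in KO untreated libraries. In WT IMQ libraries they summed to 1044, 1185, 2505, 565 and 459 CPM, with replicate 3 the highest and replicate 5 the lowest, as for Stfa2. In KO IMQ libraries they summed to 2512, 1144, 1742, 1299 and 2643 CPM. The order there was another one, since replicate 1, lowest for Stfa2, was the second highest and replicate 4, highest for Stfa2, was the second lowest. In KO 9 of the 10 rose by edgeR (6 to 10 as single libraries were left out), where 14.4% of all genes did. In WT none of the 10 was called, with 7 at an unadjusted p under 0.05, as were 3129 of the 14030 genes. Without WT IMQ replicate 5, 6 of the 10 were called. Calls over all genes in WT also moved between fits, from 48 to 2129. Between KO and WT with imiquimod none of the 10 was called, but all 10 were higher in KO by the fitted value. All 10 were called without WT IMQ replicate 3, where calls over all genes rose from 41 to 3129.

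The summed markers of monocytes and of eosinophils were above the KO untreated range in some KO IMQ libraries. The 6 monocyte genes summed to 242 to 314 CPM in WT untreated, 275 to 380 CPM in KO untreated and 180 to 420 CPM in WT IMQ libraries, and to 1687, 617, 162, 274 and 127 CPM in KO IMQ libraries. KO IMQ replicate 1, the library lowest in the family, was far above the others. In KO 5 of the 6 rose by edgeR (median 1.77), where 14.4% of all genes did. The other gene was at -1.03 and was not called. Without KO IMQ replicate 1, 1 of 6 was called. In WT none was called (1 with an unadjusted p under 0.05). Between KO and WT with imiquimod none was called (median 1.62). An unadjusted p under 0.05 was found for 4 of the 6, and for 2788 of the 14030 genes. Without WT IMQ replicate 3, 3 of the 6 were called, where 3129 of all genes were. The 7 eosinophil genes summed to 37.5 to 119 CPM in WT untreated, 48.4 to 139 CPM in KO untreated and 21.5 to 41.8 CPM in WT IMQ libraries, and to 92.2, 119, 207, 40.8 and 196 CPM in KO IMQ libraries. By edgeR with imiquimod, none of the 7 was called higher in either genotype, and 1 was called lower in each. The shares of all genes called lower were 1.6% in WT and 9.04% in KO. The median difference was -0.88 in WT, where none of the 7 was above 0, and 0.80 in KO, where 4 were. Epx and Prg2, eosinophil granule proteins, were the 2 of the 7 called between KO and WT with imiquimod, where 0.292% of all genes were. Both were higher in KO (median of the list 2.24). As single libraries were left out, 0 to 4 of the list were called. The 4 were called without WT IMQ replicate 3, where 3129 of all genes were. Of the 7, 5 were higher in KO by the fitted value. KO IMQ replicate 4, with the highest sum of the family in its group, had the least eosinophil signal of that group. The part of these classes in the family's differences was not tested, and in bulk RNA more cells that express a gene and more RNA per cell cannot be told apart.

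Stefin A is also an epidermal protein, and the cream was applied to skin. The 8 keratinocyte genes summed to 1.66 to 4.37 CPM over the treated libraries and to 2.21 to 2.79 in the untreated ones. Krt5 was at 0 reads in 18 of 20 libraries, Krt14 in 14, Krt1 and Lor in 15 and Sprr1a in all 20. Krt10 was at 0 in 1 library, while Ivl and Dsp had reads in all 20. The highest levels of these were 0.545 CPM (Krt10), 0.506 (Ivl) and 4.14 (Dsp, median 2.02). Of the 8 genes 3 were tested, and none was called in any comparison.

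Of the family genes outside the list, 2010005H15Rik (Csta2 in RefSeq) lies between Gm5416 and Stfa1, and its coding sequence is 96.91% identical to that of Gm5483. It was at 0.255 to 0.546 CPM in WT untreated and at 3.18, 3.73, 4.64, 2.50 and 0.557 CPM in WT IMQ libraries. This gene was not used to choose the members. It is a relative in the same cluster, though, and was listed with earlier results of these data known. It rose in WT (2.87 ± 0.48, edgeR adjusted p = 0.007019), without overlap of the groups. It also rose in KO (1.56 ± 0.47, edgeR adjusted p = 0.0253), from 0.452 to 0.673 CPM untreated to 0.363, 1.40, 2.11, 2.44 and 1.36 CPM, but that call was lost without KO untreated replicate 1 (adjusted p = 0.0532) or replicate 4 (adjusted p = 0.0609). KO and WT did not differ past the threshold with imiquimod (-0.93 ± 0.45, edgeR adjusted p = 0.253). So the gene next in sequence to Gm5483 had the larger response of that pair in WT, as Stfa2 had beside Stfa2l1; whether the members of each pair differ in response was not tested.

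Gm5416 (Csta3) did not pass in any comparison. It was at 0.934 to 1.55 CPM in WT untreated and 1.08 to 1.96 CPM in WT IMQ libraries (0.44 ± 0.35, edgeR adjusted p = 0.50). In KO it was at 0.934 to 1.40 CPM untreated and 0.221 to 1.78 CPM with imiquimod (-0.40 ± 0.36, edgeR adjusted p = 0.418). Its windows were all found in no other gene, so a family gene between Gm5483 and Stfa1, with ACCTTTAAAACCC in its promoter, was not called. The TTTAAA of Gm5416 lay 77 bases before its RefSeq start, against 9 to 33 in the members' promoters, so the placing of the run was not alike. Csta1, which lies before Stfa2l1, had 0 to 13 reads per library and was not tested.

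The proteases that stefins inhibit, and the other cystatins, were taken as a list. Of 25 genes on a list of cystatins, cysteine cathepsins and legumain, 15 were tested. In WT none was called by edgeR (3 with an unadjusted p under 0.05), where 2.34% of all genes were called higher and 1.6% lower, and DESeq2 called 1, Ctsc. In KO 1 rose, where 14.4% of all genes did, so at this list size neither count stands apart from the background. The median of the 15 was -0.02 in WT and 0.14 in KO. The gene that rose in KO was Ctsc, which encodes dipeptidyl peptidase 1, the activator of neutrophil serine proteases. Ctsc was at 16.1 ± 2.39 CPM (SD, n = 5) in WT untreated, 39.8 ± 6.78 in WT IMQ, 19.9 ± 7.26 in KO untreated and 108 ± 116 in KO IMQ libraries. Its difference was 2.43 ± 0.45 in KO (edgeR adjusted p = 0.004733), above the 1.77 of Stfa1 there, and 1.51 without KO IMQ replicate 1, which was at 313 CPM. In WT it was 1.30 ± 0.43 (edgeR adjusted p = 0.0849).

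Cstb, the stefin B gene outside the cluster, was level, with -0.04 ± 0.11 in either genotype (edgeR adjusted p = 0.883 in WT and 0.825 in KO). Cst3 (-0.22 in WT and -0.15 in KO), Cst7 (0.21 and 0.89), Ctsb (0.07 and 0.14), Ctsl (0.28 and 0.19), Ctsh (-0.29 and -0.21) and Ctss (0.59 and 1.13) did not pass the test either, with Ctss in KO the nearest (edgeR adjusted p = 0.0687). No gene of the list was called between genotypes in either treatment by edgeR (3 with an unadjusted p under 0.05 under imiquimod and none untreated). DESeq2 called Ctsc between KO and WT with imiquimod, as did edgeR without WT IMQ replicate 3 (adjusted p = 0.0393) or KO IMQ replicate 4 (adjusted p = 0.0460). The fit without WT IMQ replicate 3 called 3129 of all genes. Without KO IMQ replicate 1 the difference of Ctsc was 0.51, against 1.44 with all mice.

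Genes on either side of the cluster were taken as the 5 nearest on each flank that are not stefins, and 8 of these 10 were tested. Their median difference was 0.49 in WT and 0.33 in KO, against 2.88 and 1.77 for the members. In WT Fam162a (1.47 ± 0.34, edgeR adjusted p = 0.0275) and Kpna1 (0.52 ± 0.12, edgeR adjusted p = 0.0288) rose and Eaf2 fell (-2.10 ± 0.39, edgeR adjusted p = 0.0113). Cd86, the nearest tested gene beyond Stfa3, was at 0.38 ± 0.23 in WT (edgeR adjusted p = 0.356), and Ccdc58, the nearest gene before the cluster, at 0.75 ± 0.30 (edgeR adjusted p = 0.149). In KO Ccdc58, Fam162a and Wdr5b rose, by 0.97, 1.06 and 0.57, and Eaf2 fell by 1.05. None of the 8 was called between genotypes. The WT calls of Fam162a and Kpna1 and the KO call of Eaf2 were lost when most single libraries were left out.

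The genes outside the cluster whose pattern was most like the members' mean were Susd1 (r = 0.956), Cyp2s1 (0.950), Cib2 (0.943), Gapdh (0.935) and Prss16 (0.934), over 20 libraries of log2 CPM. Pdk3, Ifitm6, C1rl, Adamtsl4 and Klhl6 followed, at 0.933 to 0.929. Of these 10 Cyp2s1 had the widest differences, 4.73 in WT and 3.80 in KO beside 4.81 and 3.62 for Stfa2, from 0.388 ± 0.155 CPM (SD, n = 5) in WT untreated to 10.3 ± 6.26 in WT IMQ libraries. Ifitm6 was far more abundant, at 1102 ± 112 CPM in WT untreated and 2006 ± 477 in WT IMQ libraries. On deviations from the group means, which leave out the difference between groups, Top3b (0.911), Susd1 (0.894), Gapdh (0.881), Prss16 (0.877) and Cd47 (0.870) were the most alike. They were picked for that likeness, so it carries no test.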

How the data were processed

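Poly(A) RNA of 20 mice was sequenced with 50 bases from either end of a fragment, and the study's methods map the first read only. Whether the deposited counts used one read or both is not given in the sources used here. The authors deposited 1 file of raw read counts per gene for each library. The labels name bcl2fastq, STAR 2.7.8a and HTSeq 2.0.1 on mm10, whereas the study's methods name other software, and the strand setting and annotation are not given in the sources used here. Reads on genes were 37.4 to 41.9% of each file's total, reads on no feature 51.9 to 57.8%, and reads aligned to several places 4.37 to 6.50%; these summary lines stayed out of library sizes and tests.

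The test was edgeR 4.0.16 under R 4.3.3 (filterByExpr, TMM factors, quasi-likelihood F test of a 4-group model, Benjamini-Hochberg over 14030 genes, called at an adjusted p under 0.05). Alternatives used DESeq2 1.42.0 and limma 3.58.1, with offsets of 0.1 and 1 to the CPM; other scaling factors, no filter or a minimum of 10 counts, fewer groups, a replicate block, and leaving out libraries. A group's libraries are 5 separate mice. The steps were tested on simulated counts. Same-numbered treated and untreated libraries deviated together in KO (5 correlations of 0.128 to 0.426). In WT the 5 correlations were 0.0728 to 0.384, of which 4 exceeded 0.1. Between same-numbered KO and WT libraries, 2 of 5 exceeded 0.1 in each treatment. Those correlations ran from -0.441 to 0.206 untreated and from -0.497 to 0.343 with imiquimod.

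The members and lists were chosen with earlier results of these data known. Named genes were all members, the called genes and 8 fixed genes of the protease and cystatin list, the 10 genes most like the members, 5 more by deviations, 5 neighbours on each side, Arntl and Lyz2; 2010005H15Rik, Gm5416 and Csta1 are the family's other genes of the cluster. Positions, coding sequences and 50-base windows are from the GENCODE annotation given with mm10, and promoters from RefSeq. Cre and floxed-exon reads were not analysed here.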

Additional observations from a re-analysis of the deposited data

Results flagged for a closer look

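In each group of 5 mice, the gap between the most extreme library and its nearest neighbour was compared with the whole range of the group, for the 7 members, 2010005H15Rik and Gm5416 (36 groups). In 2 of them a library was farther away than Dixon's critical value of 0.71 allows, both times WT IMQ replicate 3. Stfa3 was at 230 CPM there, and the other 4 WT IMQ libraries were at 18.6 to 58.2. BC100530 was at 266 CPM, and the other 4 were at 10.5 to 59.2. Chance alone sets apart about 1 in 20 groups. That library also had 6.34% of its reads aligned to several places, the least late neutrophil signal of its group (9205 CPM) and the most proliferation signal (2505 CPM), and the part of these in its stefin levels was not tested.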

How the results depend on the processing

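No called value changed sign. In WT the members called were 7 in all fits to the full set of mice but 2: 6 with at least 10 counts in every library, where BC117090 was not tested, and 5 with the replicate block; they were 5 to 7 as each library was left out. In KO they were 6, with 4 to 6 in other fits (5 with the replicate block) and 5 to 7 with libraries left out. Between genotypes and for the interaction no member was called in any fit. Calls over all genes were less steady: 554 in WT (48 to 2129), 3292 in KO (1612 to 4372) and 41 between KO and WT with imiquimod (16 to 3129, the last without WT IMQ replicate 3). On the protease and cystatin list, 0 genes were called in WT but 1 in the fit of the compared groups alone, by DESeq2, without WT IMQ replicate 5 and KO IMQ replicate 2, and without the 3 libraries with most reads aligned to several places (chosen after seeing the data), and 0 to 1 with single libraries left out. In KO 1 was called, with 2 under library size alone, 3 by DESeq2 and 1 to 3 with single libraries left out. Between KO and WT with imiquimod 0 were called, with 1 by DESeq2 and 0 to 1 with single libraries left out. The cause was not tested. Without those 3 libraries (WT IMQ replicate 3, KO IMQ replicates 1 and 5) all 7 members were called in both genotypes, and KO against WT with imiquimod lay between -0.36 (BC117090) and 0.44 (BC100530). On the limma scales BC117090, with few reads, moved most.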
